A study of Mus musculus with 6 samples.

Results

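Transcripts of 10 genes for PIEZO1 and for calcium entry and release were followed in group 2 innate lymphoid cells (ILC2s) exposed to Yoda1, a small molecule that opens PIEZO1. The genes were chosen by name: Piezo1, the store-operated channel genes Orai1, Orai2 and Orai3, the calcium sensor genes Stim1 and Stim2, the transient receptor potential channel genes Trpv2 and Trpm7, and the inositol trisphosphate (IP3) receptor genes Itpr1 and Itpr2. All 10 were present among the 17546 genes of the table, and all 10 passed the filter on low counts that left 13325 genes. Both groups held ILC2s isolated from the lungs of BALB/c mice after 3 intranasal injections of 1 µg of recombinant mouse IL-33. In culture both IL-2 and IL-7 were supplied (10 ng/mL of either), and for 24 h the cells had either 10 µM Yoda1 or its solvent, DMSO. There were 3 libraries per group, DMSO 1 to 3 and Yoda1 4 to 6. The study's design text calls the control PBS, whereas the sample labels call it DMSO, and the labels were followed. The labels give no age of the mice, and no library came from cells without Piezo1, so the comparison is one of a compound with its solvent at 1 dose and 1 time. The comparison asks whether the transcripts of the channel that Yoda1 opens, and of the calcium entry machinery around it, differed after a day of exposure.

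Calcium enters lymphocytes through channels of the plasma membrane. PIEZO1 is a very large membrane protein that opens when the membrane is stretched and lets calcium and other cations through. In the store-operated route, a surface receptor activates a phospholipase C, which makes IP3; IP3 opens its receptors in the endoplasmic reticulum, the fall of calcium there is sensed by the STIM proteins, and these gate the ORAI pores in the plasma membrane. Activated ILC2s use calcium signals, like T cells, on the way to cytokine transcription.

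Total counts ranged from 14214048 to 31627519 per library, so that a count of 0 allowed 0.0949 to 0.211 CPM (counts per 1000000 counts of a library), taken as 3 counts of the total and covering counting error only. Whether the 3 libraries of a group are of different mice or wells is not in the labels, so the p-values reflect the spread among these libraries only, which may be technical. DMSO 2 and DMSO 3 share a number (19) in their labels and differ in a further number after it, as do Yoda1 4 and Yoda1 5 (21). Either pair may thus come from a single sample, and the n given with each SD counts libraries. All 14 listed ILC2 markers were in the table, with summed levels of 11253 to 11877 CPM in DMSO and 11857 to 12952 CPM in Yoda1 libraries. Il5 made up the largest part of that sum, at 5343 to 5936 CPM in DMSO and 6935 to 8258 CPM in Yoda1 libraries. Of the 14 markers 2 fell and none rose, where 1.49% of all tested genes passed in either direction. The groups were apart for 10 of them (4 higher and 6 lower), where they were apart for 22.6% of all tested genes. Those that fell were the costimulatory receptor gene Icos (850.5 to 875 CPM in DMSO, 434 to 509 CPM in Yoda1) and the IL-2 receptor gene Il2ra (1146 to 1176 CPM and 682 to 783 CPM). The lineage factor gene Gata3 was at 766 CPM or more in each library. The T cell list was at 304 to 457 CPM over the 6 libraries, mostly from the receptor constant segments Trbc1 and Trbc2, while of the T cell receptor complex genes Cd3e was at 2.67 CPM or less and Cd3g at 18.4 to 32.4 CPM. The epithelial list was at 92.4, 425 and 406 CPM in DMSO 1 to 3 and at 55.9 to 76.1 CPM in the Yoda1 libraries, without overlap. Most of the sum in DMSO 1 and the Yoda1 libraries was Epcam, which overlapped (64.6 to 67.8 CPM in DMSO, 48.8 to 70.1 CPM in Yoda1). Krt8, Cdh1 and Sftpd of the list were at 0 in DMSO 1 and in each Yoda1 library. The airway secretory gene Scgb1a1 was at 301.7 CPM in DMSO 2 and 293.3 CPM in DMSO 3, and at 0 or 0.0585 CPM in the other 4 libraries. The alveolar gene Sftpc was at 15.3 CPM in DMSO 1 and at 0.569 CPM or less in the other 5. Of the macrophage and dendritic cell list, 10 of 14 genes were in the table. Their summed level was 21.3 to 24.8 CPM in DMSO and 29.5 to 33.0 CPM in Yoda1 libraries, without overlap, with 3 of 4 tested genes positive, a median log2 change of 0.99, no gene past the edgeR test and 1 called higher by DESeq2. Lyz2, a lysozyme gene of myeloid cells, was at 1.30 to 4.94 CPM in DMSO and 6.38 to 10.99 CPM in Yoda1 libraries. The macrophage receptor gene Csf1r was at 0.333 CPM or less in each. H2-Aa went the other way, at 6.99 to 12.7 CPM in DMSO and 3.26 to 4.97 CPM in Yoda1 libraries. Adgre1 was at 0.0556 to 1.68 CPM in DMSO and at 0 in the Yoda1 libraries. Of the tested genes of this list, 1 was apart higher and 1 apart lower. The erythroid and platelet list was at 7.37 to 9.29 CPM in DMSO and 11.1 to 19.3 CPM in Yoda1 libraries, also without overlap. Of 8 transcripts listed for RNA quality 1 rose and 2 fell, against 1.49% of all tested genes. The groups were apart for 7 of the 8 (4 higher and 3 lower), against 22.6% of all tested genes. The 8 listed were Malat1, Neat1, Xist, Rn7sk, mt-Co1, mt-Nd1, mt-Cytb and mt-Atp6. The small nuclear RNA Rn7sk rose (12.9 to 24.4 CPM in DMSO, 64.7 to 95.6 CPM in Yoda1), and the mitochondrial mt-Cytb (578 to 644 CPM and 332 to 448 CPM) and mt-Atp6 (190.2 to 196.7 CPM and 101.4 to 115.9 CPM) fell. The part of other cells and of RNA quality in the results was not tested. In bulk samples, fewer cells of a type and less RNA per cell cannot be told apart.

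None of the 10 genes passed the test for a difference between Yoda1 and DMSO. Piezo1 was at a similar level in both groups, with a log2 change of 0.20 and a 95% interval from -0.32 to 0.72. The clearest separation was in the ORAI family: Orai1 was 1.36 times as high with Yoda1 (95% interval 1.09 to 1.69) and Orai2 was 0.856 times as high (95% interval 0.663 to 1.11), in each case without overlap between the libraries of the groups. Across all 13325 tested genes 1.49% passed (76 higher and 123 lower), by the quasi-likelihood F test of edgeR and an adjusted p (Benjamini and Hochberg) under 0.05. With upper quartile scaling the split was 57 higher and 174 lower. With no adjustment (p under 0.05), 1 of the 10 genes (Orai1) had a difference, against 14.5% of all tested genes, and the groups did not overlap for 2 of the 10, against 22.6% of all tested genes, so both counts were near the background. The median log2 change of the 10 genes was 0.12, with 7 positive and 3 negative values, against a median of 0.011 for all tested genes. DESeq2 called 1 of the 10, Orai1, against 6.56% of the genes it tested, and limma voom called none, against 2.25%.

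**Figure D1:**
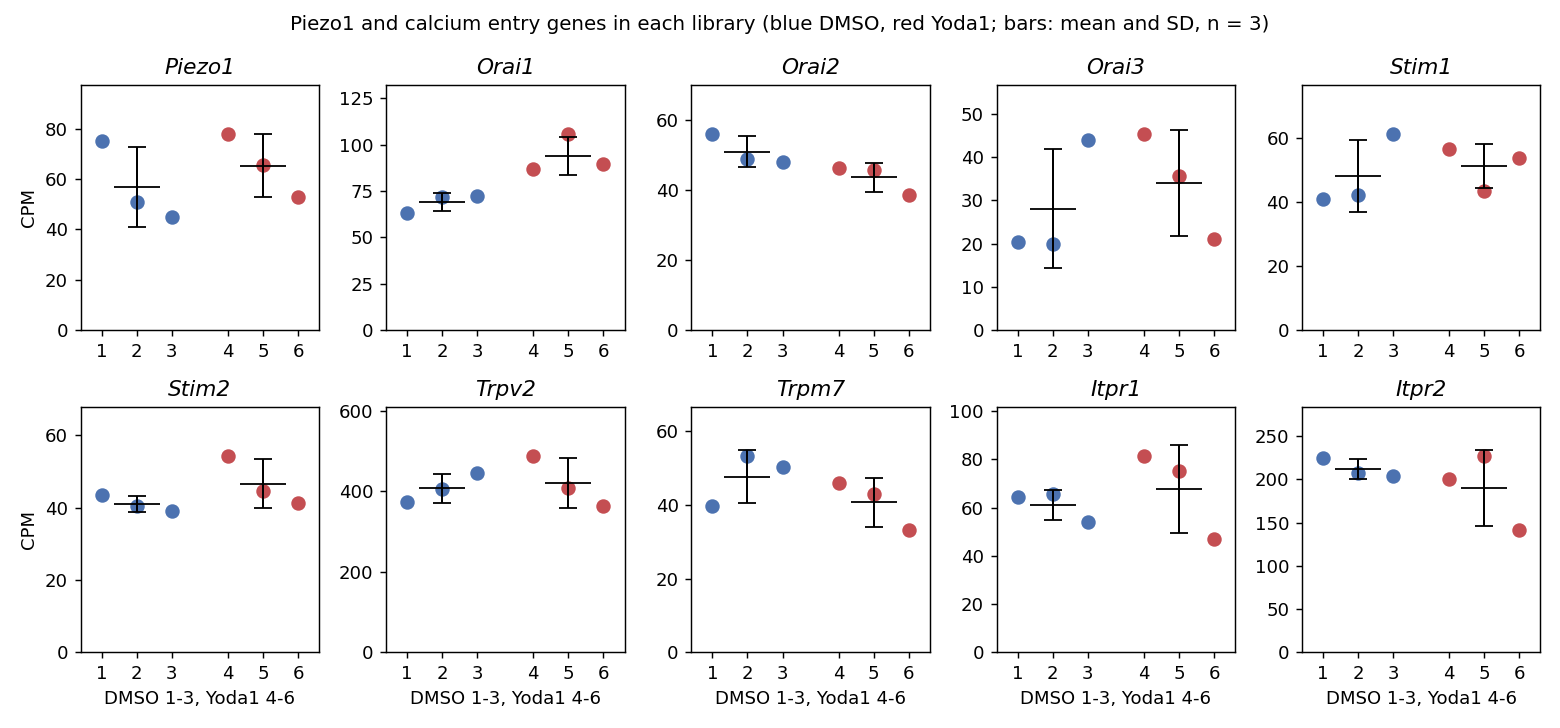
Expression of the 10 genes in each library. The vertical axes give CPM from 0, the horizontal axes the library number (DMSO 1 to 3 in blue, Yoda1 4 to 6 in red), and the black bars the mean and SD of 3 libraries. The red points lie above all blue points for Orai1 and below them for Orai2, and the groups overlap for the other 8 genes.

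The genes differed far more in their level than in their response. To compare levels between genes, CPM were divided by the length in kb of the union of each gene's annotated exons, and the mean and SD were taken over the 6 libraries. Trpv2, a cation channel gene of immune cells, had the highest level of the set at 92.1 ± 10.3 CPM per kb (SD, n = 6), above 94.8% of tested genes with a known length. Orai1, the main store-operated pore of lymphocytes, followed at 35.5 ± 6.7 CPM per kb (SD, n = 6). Both places held in each of the 6 libraries. Orai3 and Itpr2 came next, at 14.5 ± 5.6 and 13.6 ± 2.1 CPM per kb (SD, n = 6). Orai3 was above Itpr2 in 4 of 6 libraries, so these neighbours did not differ beyond their spread. Stim2 and Orai2 were at 8.55 ± 1.06 and 7.77 ± 0.92 CPM per kb (SD, n = 6), in that order in 3 of 6 libraries.

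Piezo1 stood below the middle of the set at 6.15 ± 1.37 CPM per kb (SD, n = 6), a level above 53.4% of tested genes. The lowest of the 10 were Stim1, Trpm7 and Itpr1, between 3.52 and 4.799 CPM per kb. The third IP3 receptor gene, Itpr3, which is not among the 10, was lower again at 2.13 ± 0.57 CPM per kb (SD, n = 6). The order depends on which transcripts the cells make, which a table of counts per gene does not show. With the length of the longest annotated transcript instead, Trpv2 and Orai1 again came first and second. Stim1 then lay above Stim2 in 6 of 6 libraries (11.4 ± 2.0 and 8.89 ± 1.11 CPM per kb, SD, n = 6), and its exons add up to 10371 bases where its longest transcript has 4362.

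**Figure D2:**
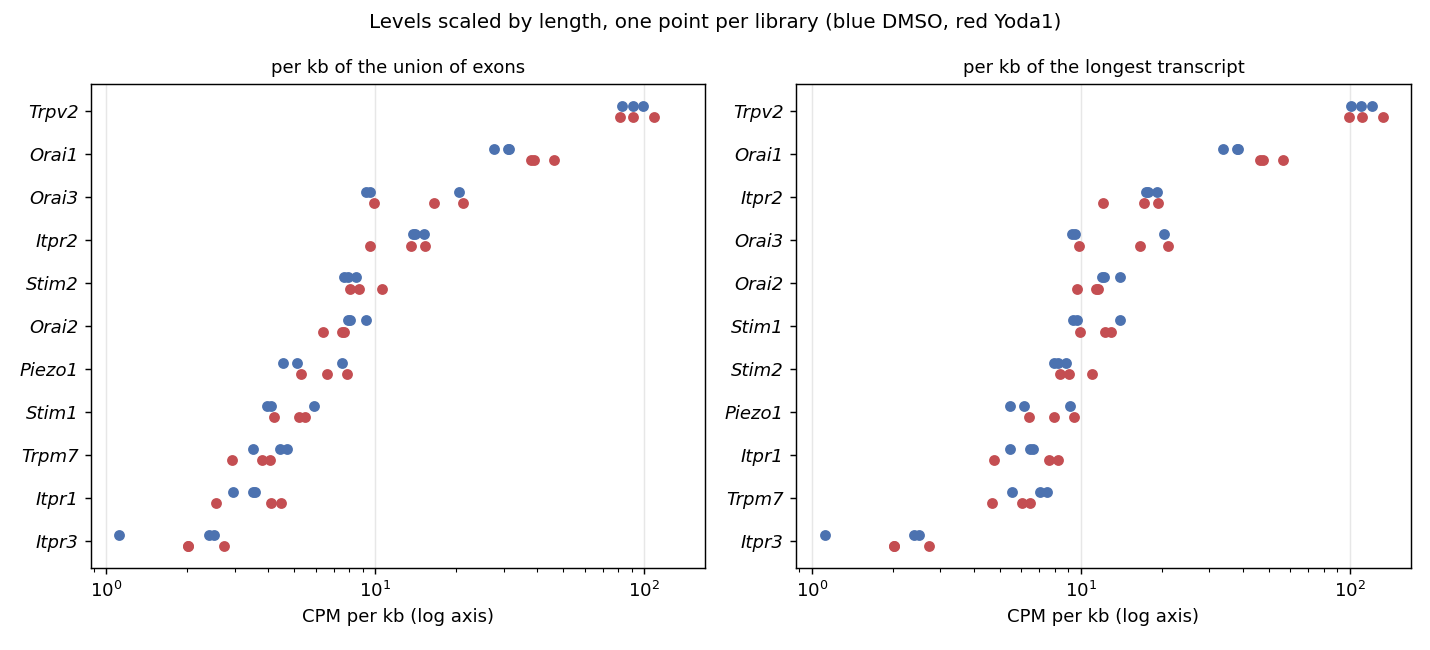
Levels scaled by gene length. The horizontal axes give CPM per kb on a log scale, with length taken as the union of exons (left) or as the longest transcript (right), and each point is a library (blue DMSO, red Yoda1). Trpv2 and Orai1 are highest under both lengths, and Stim1 changes place with Stim2 between the panels.

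Piezo1 encodes the channel that Yoda1 acts on. The gene lies on chromosome 8 at 122481698 to 122551329 on the minus strand (GRCm38). It was at 74.9, 50.7 and 44.9 CPM (DMSO 1 to 3) and 77.8, 65.4 and 52.6 CPM (Yoda1 4 to 6). The highest and lowest libraries of the groups overlapped, since DMSO 1 was nearly as high as Yoda1 4. The means of the groups were 56.8 ± 15.9 (DMSO) and 65.3 ± 12.6 CPM (Yoda1; SD, n = 3). The difference did not pass (edgeR adjusted p = 0.75). The interval covers folds from 0.799 to 1.65, so neither a modest fall nor a rise of that size could be told from no change. The direction rested on the controls used. The log2 change was -0.20 (SE 0.30) with DMSO 1 as the only control and 0.45 when DMSO 1 was left out.

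A further limit holds for Piezo1. Its exons share 2441 bases with those of Ctu2, a tRNA thiolation gene on the opposite strand, with the strand setting of the counting not given in the sources used here. None of the 6 deposited counts of Piezo1 was whole within 0.01, whereas those of Orai2, Orai3, Stim1, Stim2 and Trpm7 were whole in 6 of 6 libraries. Trpv2, whose exons overlap those of no other annotated gene, also had no whole count. Ctu2 was at 56.3, 39.1 and 64.0 CPM (DMSO 1 to 3) and 69.4, 61.5 and 48.7 CPM (Yoda1 4 to 6), with a log2 change of 0.17 (SE 0.22, edgeR adjusted p = 0.77). How far reads of either gene entered the other's count was not tested.

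The ORAI genes encode the pores of store-operated entry. Orai1, on chromosome 5 at 123015074 to 123030456 (GRCm38), was at 63.4, 71.7 and 72.2 CPM (DMSO 1 to 3) and 86.7, 105.7 and 89.3 CPM (Yoda1 4 to 6). Each Yoda1 library was above each DMSO library. The log2 change of Orai1 came to 0.44 (SE 0.14, edgeR adjusted p = 0.18), which did not pass over all genes, while DESeq2 gave 0.45 with an adjusted p of 0.039. The log2 change was positive under all 16 other settings, from 0.35 to 0.56, with adjusted p between 0.039 and 0.855. Against DMSO 1 alone, the control library without Scgb1a1 counts but with Sftpc, it was 0.56 (SE 0.26, edgeR adjusted p = 0.855). The summed epithelial list and 7 of the 8 transcripts listed for RNA quality, a list that includes Xist, separated the same groups. So did 22.6% of all tested genes. The part of the list and of these transcripts in the Orai1 difference was not tested.

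Orai2, on chromosome 5 at 136147459 to 136170713, encodes a subunit that joins ORAI1 in mixed channels and lowers their current. It was at 56.0, 48.9 and 47.9 CPM (DMSO 1 to 3) and 46.3, 45.7 and 38.7 CPM (Yoda1 4 to 6). The gap between the lowest DMSO and the highest Yoda1 library was small, and the log2 change of -0.22 (SE 0.16) did not pass (edgeR adjusted p = 0.58). It was negative under all 16 other settings, from -0.37 to -0.14. Orai3, on chromosome 7 at 127769815 to 127775150, is the ORAI gene found in mammals alone. It was at 20.5, 19.8 and 43.9 CPM (DMSO 1 to 3) and 45.3, 35.5 and 21.1 CPM (Yoda1 4 to 6). Orai3 thus varied more within each group than between them: DMSO 3 was as high as Yoda1 4, and Yoda1 6 as low as DMSO 1 and 2. Its SD on the log2 scale was 0.65 among DMSO and 0.56 among Yoda1 libraries, where the medians of all tested genes were 0.24 and 0.32. The log2 change of 0.28 had an interval from -0.58 to 1.14.

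The STIM genes encode the sensors of calcium in the endoplasmic reticulum. STIM1 carries most of store-operated entry in lymphocytes, and STIM2 responds to smaller losses of calcium. Stim1, on chromosome 7 at 102267806 to 102437319, was at 41.0, 42.3 and 61.3 CPM (DMSO 1 to 3) and 56.7, 43.5 and 53.9 CPM (Yoda1 4 to 6). DMSO 3 was the highest of the 6, as it was the highest of its group for Orai3. Stim2, on chromosome 5 at 53998499 to 54121057, was at 43.5, 40.6 and 39.1 CPM (DMSO 1 to 3) and 54.3, 44.5 and 41.2 CPM (Yoda1 4 to 6), so only Yoda1 4 stood well above the controls. Neither passed (edgeR adjusted p = 0.89 for Stim1 and 0.68 for Stim2). The intervals reached from -0.38 to 0.56 for Stim1 and from -0.21 to 0.57 for Stim2 on the log2 scale.

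The TRP channel genes had overlapping values in the groups. Trpv2, on chromosome 11 at 62574486 to 62600515, was at 371.9, 405.6 and 443.9 CPM (DMSO 1 to 3) and 487, 407 and 364 CPM (Yoda1 4 to 6). Both the highest and the lowest value came from a Yoda1 library. The log2 change was 0.04 (SE 0.12), and its interval from -0.24 to 0.33 was the narrowest of the 10 genes. Trpm7, on chromosome 2 at 126791565 to 126876230, encodes a magnesium- and calcium-permeable channel fused to a kinase. It was at 39.6, 53.3 and 50.2 CPM (DMSO 1 to 3) and 46.01, 42.9 and 33.2 CPM (Yoda1 4 to 6), with DMSO 1 inside the Yoda1 range. Its log2 change of -0.23 (SE 0.20) did not pass (edgeR adjusted p = 0.65).

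The IP3 receptor genes encode the release channels of the endoplasmic reticulum. Itpr1, on chromosome 6 at 108213096 to 108551109, was at 64.2, 65.4 and 54.1 CPM (DMSO 1 to 3) and 81.4, 75.1 and 46.9 CPM (Yoda1 4 to 6). Itpr2, on chromosome 6 at 146108299 to 146502223, was at 224.9, 207.7 and 203.9 CPM (DMSO 1 to 3) and 201.0, 227.1 and 141.7 CPM (Yoda1 4 to 6). For both genes Yoda1 6 was the lowest of the 6 libraries, below the DMSO range, while the other Yoda1 libraries were above it for Itpr1 and close to it for Itpr2. Without Yoda1 6 the log2 change was 0.35 for Itpr1 and 0.013 for Itpr2, against 0.15 (SE 0.22) and -0.16 (SE 0.17) with all libraries. Neither gene passed (edgeR adjusted p = 0.81 and 0.72). Yoda1 6 was the lowest library for 5 of the 10 genes and Yoda1 4 the highest for 5, so the Yoda1 libraries differed among themselves in this gene set.

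**Figure D3:**
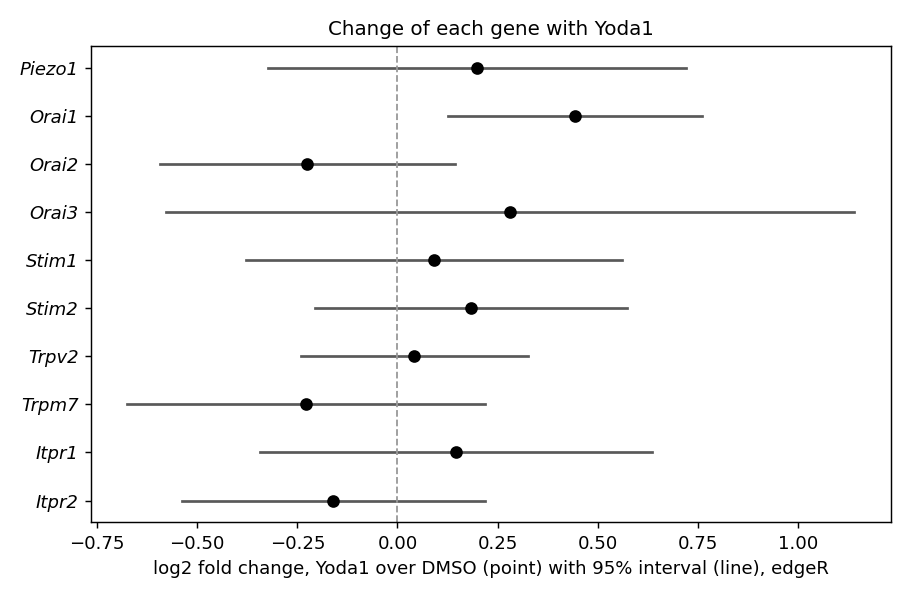
Log2 fold changes of Yoda1 over DMSO. Points are edgeR estimates from 3 libraries per group and lines their 95% intervals; the dashed line marks no change. The interval of Orai1, from 0.13 to 0.76, lies above 0, and the other 9 intervals include 0.

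Shares within each family were computed from CPM per kb of exon, which removes differences in library scaling. Orai1 made up 59.5, 64.3 and 52.6% of the ORAI sum (DMSO 1 to 3) and 56.8, 65.7 and 70.6% (Yoda1 4 to 6), which overlapped. The share of Orai2 was lower in each Yoda1 library, at 16.5 ± 3.3% with DMSO and 11.2 ± 0.4% with Yoda1 (SD, n = 3). Orai3 took up the rest, from 17.9 to 34.2% over the 6 libraries. Stim1 made up 36.5 ± 6.3% of the STIM sum with DMSO and 35.3 ± 3.5% with Yoda1 (SD, n = 3), or 56.5 ± 6.5% and 55.4 ± 3.7% by the longest transcript. Of the STIM sum, the larger share thus depended on the length used, and the groups overlapped under both.

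Among the IP3 receptors, Itpr2 held the largest share in each library. Its share was 73.0 ± 3.7% with DMSO and 68.2 ± 0.9% with Yoda1 (SD, n = 3), with no overlap between the groups. The share of Itpr1 was higher in each Yoda1 library, at 17.0 ± 0.8% and 19.6 ± 2.2% (SD, n = 3), and that of Itpr3 ranged from 6.24 to 14.3%. Exact two-sided permutation tests gave p = 0.1 for Orai2, Itpr1 and Itpr2, which is the smallest p that 3 libraries against 3 allow, and 0.233 after Benjamini-Hochberg adjustment over the 7 shares tested. Exact permutation p for the other 4 shares ranged from 0.4 to 1. None could therefore pass at 0.05. As counts alone, with no length or scaling, there were 1.13, 1.47 and 1.51 Orai1 counts per Orai2 count (DMSO 1 to 3) and 1.87, 2.31 and 2.31 (Yoda1 4 to 6), a ratio chosen after the values of both genes were seen and given without a test.

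**Figure D4:**
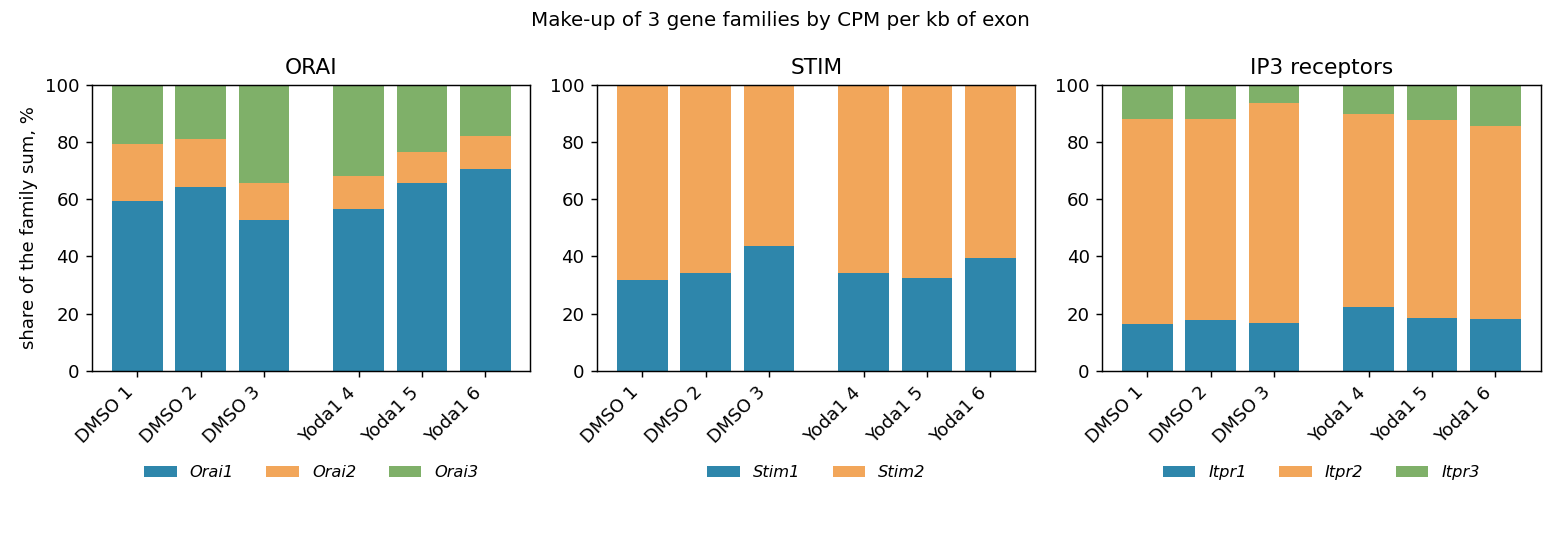
Make-up of the ORAI, STIM and IP3 receptor families in each library. Bars give each gene's share, in percent, of the family's summed CPM per kb of exon. The Orai2 segment is between 10.7 and 11.5% in the Yoda1 libraries and between 13.2 and 19.9% in the DMSO libraries.

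The wider calcium machinery was read from 8 lists of 139 genes in all, of which 94 were in the table and 73 were tested. Over these lists 1 gene rose, none fell and 72 did not pass, a share near the 1.49% of all tested genes. With no adjustment (p under 0.05), 10 of the 73 were higher and 4 lower, against 14.5% of all tested genes in either direction (985 higher and 948 lower). The adjusted calls were 5 higher and 2 lower by DESeq2, against 6.56% of the genes it tested, and 1 higher and 0 lower by limma voom, against 2.25%. The median log2 change of the 73 genes was 0.013, close to that of all tested genes, with 39 positive and 34 negative values.

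The gene that rose was P2rx4, which encodes an ATP-gated cation channel permeable to calcium. It was at 30.90, 47.96 and 47.68 CPM (DMSO 1 to 3) and 92.8, 101.9 and 93.0 CPM (Yoda1 4 to 6). Each Yoda1 library was far above each DMSO library. The means of the groups were 42.2 ± 9.8 (DMSO) and 95.9 ± 5.2 CPM (Yoda1; SD, n = 3), a log2 change of 1.18 (SE 0.19, edgeR adjusted p = 0.0246). P2rx4 lies on chromosome 5 at 122707544 to 122729738 (GRCm38). It kept a log2 change of at least 1.00 under all 16 other settings, and passed in 8 of the 16. With each library left out in turn, however, it passed in only 1 of 6 fits, the one without Yoda1 6, and the adjusted p ranged from 0.0468 to 0.122. It did not pass with libraries that share a label number summed (edgeR adjusted p = 0.223). The suffix of the library labels as a term leaves DMSO 3 as the only control, and the log2 change of P2rx4 was then 1.01. Against DMSO 1 alone the log2 change was 1.63. The fit with DMSO 1 alone cannot show the spread among controls. In the suffix fit that spread came from DMSO 1 and DMSO 2 only, not from the control compared. Microglia and macrophages also express P2rx4. The summed macrophage and dendritic cell list was higher in the Yoda1 libraries, as given above, but its genes did not share a direction. Lyz2 was higher and H2-Aa lower, each without overlap between the groups. Adgre1 was at 0 in the Yoda1 libraries, and Csf1r was at 0.333 CPM or less in each library. Rn7sk, mt-Cytb and mt-Atp6 also separated the same groups. The part of either in the P2rx4 difference was not tested. The other 16 tested genes of that list of cation channels did not pass, and the list's median was 0.13.

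Regulators of store-operated entry showed no common direction, with 4 positive and 7 negative log2 changes among 11 tested genes and a median of -0.16; none passed. Saraf, which encodes the protein that turns off STIM-gated entry, was at 393, 420 and 396 CPM (DMSO 1 to 3) and 627, 507 and 527 CPM (Yoda1 4 to 6). The groups were apart, but the log2 change of 0.46 (SE 0.10) missed the threshold in edgeR (adjusted p = 0.073) and passed in DESeq2 (adjusted p = 0.0011). It also passed in edgeR with at least 10 CPM in 3 libraries as the filter (adjusted p = 0.038). With each library left out it passed in 0 of 6 fits. Selenok, which encodes an endoplasmic reticulum selenoprotein needed for calcium flux in immune cells, was at 209 ± 12 (DMSO) and 310.5 ± 74 CPM (Yoda1; SD, n = 3). Its log2 change of 0.57 (SE 0.16) did not pass in edgeR (adjusted p = 0.14) and passed in DESeq2 (adjusted p = 0.013). Of 4 listed PIEZO1 partners 1 was tested. That gene, Mdfic, encodes an auxiliary subunit that binds PIEZO channels, and it was at 28.4 ± 3.0 and 29.8 ± 2.0 CPM (SD, n = 3), with a log2 change of 0.07 (SE 0.19).

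Genes that make or remove IP3 did not pass, with 7 positive and 4 negative values among 11 and a median of 0.19. Itpkc, an IP3 kinase gene, had the smallest p; it was at 14.7, 5.87 and 10.8 CPM (DMSO 1 to 3) and 24.9, 20.8 and 19.2 CPM (Yoda1 4 to 6). Inpp1, an inositol phosphatase gene, had a log2 change of 0.31 (SE 0.19). Of 7 tested calcium pumps and exchangers none passed in edgeR. Atp2b4, a plasma membrane calcium pump gene, was at 10.7, 19.5 and 6.93 CPM (DMSO 1 to 3) and 4.78, 3.69 and 4.36 CPM (Yoda1 4 to 6). Its log2 change of -1.54 (SE 0.42, edgeR adjusted p = 0.12) passed in DESeq2 (adjusted p = 0.024). Slc8b1, the mitochondrial sodium-calcium exchanger gene, was at 15.3 ± 0.7 and 26.5 ± 12.3 CPM (SD, n = 3).

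For mitochondrial calcium uptake, 9 of 11 tested genes had positive log2 changes, with a median of 0.28, and none passed. Micu2, a gatekeeper of the uniporter, was at 97.6 ± 6.8 and 128.3 ± 16.4 CPM and the outer membrane channel gene Vdac3 at 202 ± 5 and 245 ± 25 CPM (SD, n = 3). Among 5 tested potassium channels of lymphocytes, which hold the membrane potential that drives calcium entry, 2 were higher and 2 lower with no adjustment (p under 0.05, as were 14.5% of all tested genes), and none passed with it. Kcnn4, the calcium-activated potassium channel gene, was at 131, 88.5 and 114 CPM (DMSO 1 to 3) and 171, 199 and 146 CPM (Yoda1 4 to 6), a log2 change of 0.63 (SE 0.17, edgeR adjusted p = 0.13). Kcnk5, a background potassium channel gene, differed in the other direction, at 80.8 ± 6.8 and 52.5 ± 12.3 CPM (SD, n = 3). DESeq2 called both (adjusted p = 0.011 and 0.040). Of 10 genes for calmodulin and its kinases 7 were negative, with a median of -0.18 and none past the test; Calm3 and Camk4 had log2 changes of -0.41 (SE 0.17) and -0.34 (SE 0.15).

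**Figure D5:**
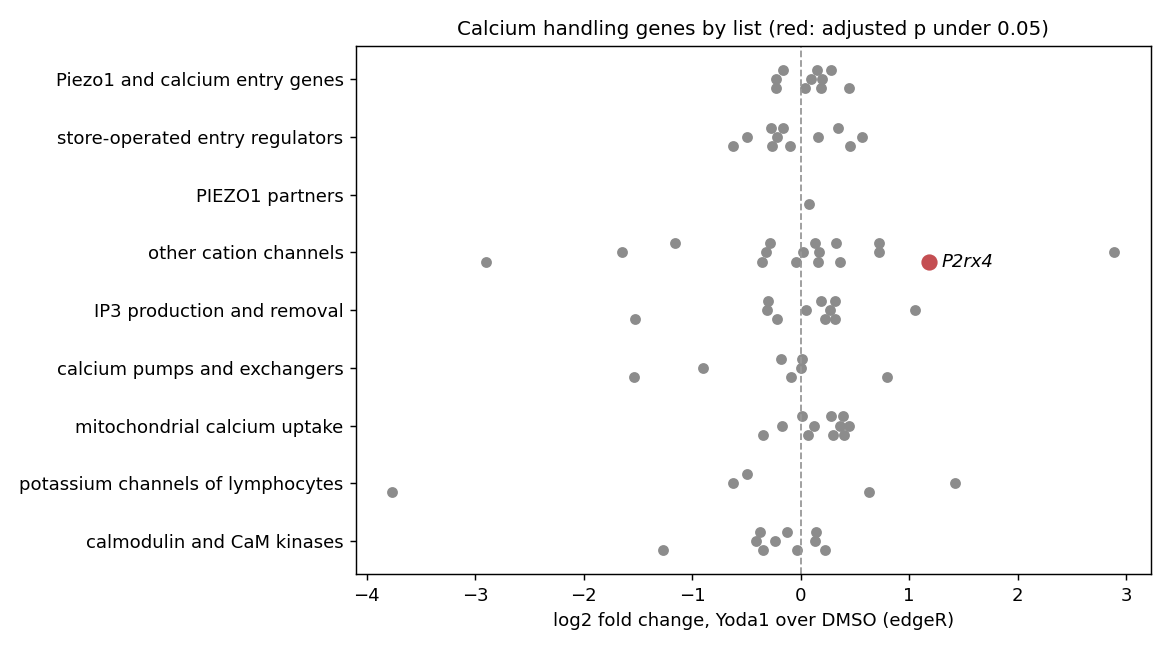
Log2 fold changes of Yoda1 over DMSO for the tested genes of each list, with the 10 calcium entry genes in the top row. Each point is a gene; red marks an adjusted p under 0.05 in edgeR. P2rx4, at 1.18, is the only red point in these lists.

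The library pattern of Piezo1 was compared with that of 8862 protein-coding genes with a mean of at least 5 CPM, by the root mean square difference of log2 CPM over the 6 libraries after centring each gene on its mean. The median difference over these genes was 0.39. The 5 nearest genes were Drosha (0.086), Capn1 (0.089), Arrb2 (0.091), Gaa (0.092) and Srcap (0.098). They shared the high values of DMSO 1 and Yoda1 4 with Piezo1, as in Capn1 at 68.2, 56.0 and 48.5 CPM (DMSO 1 to 3) and 79.5, 67.2 and 56.0 CPM (Yoda1 4 to 6). Of the other 9 genes of the set, Stim2 was nearest, at rank 133 with 0.19, followed by Itpr1, at rank 307 with 0.22. Orai3 was farthest, at rank 7551 with 0.57. All these values come from the same 6 libraries and share their depth and scaling.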

How the data were processed

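RNA-seq of 6 ILC2 libraries gave 1 table of expected counts (estimated read counts per gene), deposited by the authors. Per the submitters' processing notes the build was mm10, with the aligner, counter, strand setting and annotation not given in the sources used here. Each gene had at least 10 counts over the 6 libraries. Counts were rounded and tested with edgeR 4.0.16 in R 4.3.3 (TMM, filterByExpr with minimum count 10 and minimum total 15, glmQLFit and glmQLFTest, Benjamini-Hochberg adjusted p under 0.05), with groups from the sample titles and no covariates. SE is the log2 change over the root of F, and 95% intervals use its t quantile. CPM are TMM-scaled; those of markers refer to all counts. Positions and lengths are from GENCODE M21 (GRCm38, the mm10 build). The scripts were tested on simulated counts with a smaller spread between libraries than these data have. That checks the code, not the power of the tests at the spread seen here.

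The members and lists were chosen with earlier results of these data known. The text names the 10 members, up to 4 genes past the threshold per list (or the 2 with the smallest p), and the 5 genes nearest to Piezo1. Alternatives were other scalings, DESeq2 1.42.0, voom in limma 3.58.1, other filters, the label suffix as a term (0 for DMSO 1 and 2), summed libraries with a shared label number, the longest transcript as length and each library left out; DMSO 1 alone as control was added after seeing the data.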

Additional observations from a re-analysis of the deposited data

How the results depend on the processing

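The count of all genes past the threshold moved from 199 to 926 in DESeq2, 300 in limma voom, 448 with at least 10 CPM in 3 libraries, 3 with the label suffix as a term, 1 with summed libraries and 0 with DMSO 1 alone; leaving out each library gave 9 to 220, with 34, 22, 9 and 34 without DMSO 1, 2, 3 and Yoda1 5. The count among the 10 members was 0 under every setting run except DESeq2, which gave 1. Over the pathway lists it went from 1 to 7 in DESeq2, to between 0 and 1 with each library left out, and to 0 with DMSO 1 alone. With fewer libraries the fits have fewer residual degrees of freedom. In the fit with DMSO 1 alone the single control is assumed to vary like the Yoda1 libraries. Only DMSO 1 and 2 have suffix 0, so with the suffix as a term the Yoda1 libraries are compared with DMSO 3 alone. Orai1 and Stim2 stayed positive and Orai2 negative under all 16 settings. The other 7 members changed sign under 1 or more. Summed libraries gave -0.00091 for Piezo1, -0.017 for Itpr1 and -0.037 for Itpr3, and DMSO 1 alone gave -0.20 for Piezo1, 0.033 for Trpm7, -0.16 for Itpr3 and -0.092 for Mdfic. The label suffix as a term, and so DMSO 3 as the only control, gave -0.37 for Orai3, -0.26 for Stim1 and -0.083 for Trpv2. Upper quartile factors gave -0.011 for Trpv2. With each library left out the log2 change ran from -0.011 to 0.29 for Stim1, -0.079 to 0.13 for Trpv2, -0.0068 to 0.35 for Itpr1, -0.31 to 0.013 for Itpr2 and -0.13 to 0.35 for Itpr3. The Orai3 share moved from -0.211 to 0.0266 points with the longest transcript, 0.0922 with summed libraries, 3.81 with DMSO 1 alone and between -3.89 and 4.59 with each library left out. The Stim1 share moved from -1.20 to 1.79 with summed libraries, 3.52 with DMSO 1 alone and between -3.56 and 2.39 with each library left out. The cause of these changes was not tested. No paired analysis was possible because the DMSO and Yoda1 libraries share no replicate number.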

Other observations

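Some calcium channel genes outside the naming rule are given as values, chosen after they were seen. Mcoln1, which encodes a calcium channel of the lysosome, was at 60.6, 55.3 and 81.3 CPM (DMSO 1 to 3) and 127.1, 99.1 and 97.8 CPM (Yoda1 4 to 6). Its log2 change of 0.72 (SE 0.18) did not pass in edgeR (adjusted p = 0.11) or limma voom (adjusted p = 0.058) and passed in DESeq2 (adjusted p = 0.0064). Mcu, the pore of the mitochondrial uniporter, was at 21.9, 25.1 and 23.3 CPM (DMSO 1 to 3) and 27.2, 27.5 and 37.2 CPM (Yoda1 4 to 6), with a log2 change of 0.39 (SE 0.21). P2rx7, another ATP-gated channel gene, was at 1.88 CPM or less in each library. Of the calcium pumps, the endoplasmic reticulum pump gene Atp2a2 was at 373 ± 35 and 329 ± 61 CPM and the plasma membrane pump gene Atp2b1 at 276 ± 28 and 278 ± 6 CPM (SD, n = 3), neither past the test.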
